A study of Mus musculus with 4 samples.

Results

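Malic enzymes and the other enzymes that make NADPH or handle malate were examined in 4 lines of L1210, a mouse lymphocytic leukemia cell line. The set held 9 genes, Me1, Me2, Me3, Idh1, Idh2, G6pdx, Pgd, Mdh1 and Mdh2, out of 24561 gene symbols on the array, and every probe that the deposited table pairs with these symbols was taken. This gave 14 of the 33822 probes with a symbol, namely 3 for Me1, 2 for Me2, 3 for Me3 and 1 for each of the other genes. The set was chosen by the signal ratios of Me3 over the control line, which were already known to be among the largest increases shared by the 3 other lines, and the remaining genes were added for their reactions. The Me3 ratios below are therefore a description, and nothing is supported with them.

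All lines were of L1210, whose strain background is labelled DBA subline 212, went through lentiviral infection, and were sorted by FACS as GFP-positive stable cells. The control line, L1210-control, carried a control construct, and the variant lines L1210-Fbxw11a, L1210-Fbxw11c and L1210-Fbxw11d each carried the transcript variant of Fbxw11 in their name and are called the Fbxw11a, Fbxw11c and Fbxw11d lines. Fbxw11 is an F-box protein, the part of an SCF ubiquitin ligase that binds the substrate. Total RNA of each line was labelled with Cy3 and hybridised to 1 Agilent array, so there were no replicates, and no difference between lines could be tested.

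NADPH is the electron donor for fatty acid and sterol synthesis and for the reduction of glutathione and thioredoxin. Malic enzymes oxidise malate to pyruvate and release carbon dioxide. Me1 works in the cytosol with NADP, Me2 is the mitochondrial enzyme that mainly uses NAD, and Me3 is the mitochondrial enzyme that uses NADP. The isocitrate dehydrogenases Idh1 (cytosol and peroxisome) and Idh2 (mitochondria) and the pentose phosphate enzymes G6pdx and Pgd also reduce NADP. The malate dehydrogenases Mdh1 and Mdh2 interconvert malate and oxaloacetate with NAD.

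Me3 probes 1 and 2 carried the largest increases and probe 3 was not well above background in any line, so the first 30 bases of each 60-base probe are shown to set them apart, 5′ to 3′, with no part capitalised. All lie on chromosome 7 of mm9, on the plus strand, like the RefSeq gene. The printed bases cover chr7:97000413-97000442, chr7:97000311-97000340 and chr7:97001889-97001918 for probes 1, 2 and 3.
Me3 probe 1: tctccagagatggtttgggctggatgaaga
Me3 probe 2: ttttgtaaaatctctgatctacactccaga
Me3 probe 3: acccagcttaatcctttttattccaactcc
By the annotation in the files, probe 2 starts at base 1811 of the Me3 transcript, probe 1 at base 1913, which is 102 bases further on, and probe 3 at base 3389, another 1476 bases downstream. No mm9 gene model was used here, so whether a probe lies in coding sequence or in an untranslated region is not stated.

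Signals are background-corrected intensities in arbitrary units, set to the scale of the control array by the 75th percentile of each array. The error after a signal is the scanner software's own estimate for the spot. A log2 ratio is followed by an SD that combines, for both arrays, the spread between repeated spots of the 31 probes nearest in signal among the 399 printed on 10 spots. This SD leaves out culture, sorting and RNA extraction. Comparisons took in the probes that the scanner flagged as well above background in 1 or both of the lines compared, and a fold change of 2 or more was called.

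Between 62.5% and 68.7% of the 55681 probes were well above background, and no gene spot was saturated. The arrays of the control, Fbxw11a and Fbxw11c lines were on slide 1 and that of the Fbxw11d line was alone on slide 2, so slide and variant cannot be told apart for this line. The array probes for Fbxw11 differed by at most 1.24-fold between any pair of lines, and whether the lentiviral inserts hold their targets is not known here. The paper reports high levels of the variants in these lines, checked with real-time PCR and western blots. Of 12 B lineage markers, 7 were well above background in every line, while Cd79b, Ebf1, Igll1, Rag1 and Rag2 were in none. The summed signal of the B lineage list was 19026 in the control line and 21675 to 23841 in the variant lines, and that of the 7 macrophage and monocyte markers on the array was 14579 in the control line and 11108 to 12313 in the variant lines, with 6 of the 7 well above background and Lyz2 not. The 8 T lineage markers summed to 4439 to 4859, with 5 to 6 well above background, and the 3 pan-leukocyte markers to 1463 in the control line and 1103 to 1275 in the variant lines, with 2 to 3 well above background. Their part in the results below was not tested.

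Me3 was higher in every variant line by its 2 measurable probes. With probe 1 the signal was 63.2 ± 7.42 in the control line, 248.9 ± 25.1 in the Fbxw11a line, 232.7 ± 23.5 in the Fbxw11c line and 280.0 ± 28.1 in the Fbxw11d line. The control line was low and the 3 variant lines lay close together above it. In these bulk RNA samples, more cells with Me3 RNA and more Me3 RNA per cell cannot be told apart. The log2 ratios over the control line were 1.98 ± 0.27, 1.88 ± 0.27 and 2.15 ± 0.27 in the same order, which are 3.94-, 3.68- and 4.43-fold. Probe 2 gave 60.5 ± 7.25 in the control line, then 162.1 ± 16.5, 152.4 ± 15.6 and 195.6 ± 19.7. Its log2 ratios were 1.42 ± 0.26, 1.33 ± 0.25 and 1.69 ± 0.26, or 2.68-, 2.52- and 3.23-fold. The lines had the same order with both probes, the Fbxw11d, Fbxw11a, Fbxw11c and control lines. The Fbxw11a and Fbxw11c lines differed by less than the spot SD with either probe, whereas the Fbxw11d line lay 0.17 ± 0.15 and 0.27 ± 0.18 above the Fbxw11a line on the log2 scale. The last differences were 0.05 and 0.13 with normexp, within the spot SD, and 0.38 and 0.48 with median centring.

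The third Me3 probe was not well above background in any line, with signals of 3.94, 3.17, 3.17 and 3.08, and it was not compared. The higher Me3 signal was thus seen with the probes that start 102 bases apart and could not be examined with the third. Both control signals were near the low end of the measurable range, where the lowest signal of probes well above background with every spot was 18.1 on that array. Under normexp background correction, which adds an offset of 50 to all signals, the log2 ratios of probe 1 shrank to 1.32, 1.21 and 1.37. Those of probe 2 became 0.89, 0.81 and 1.02 under that correction, so the Fbxw11a and Fbxw11c lines no longer reached 2-fold with it.

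**Figure D1:**
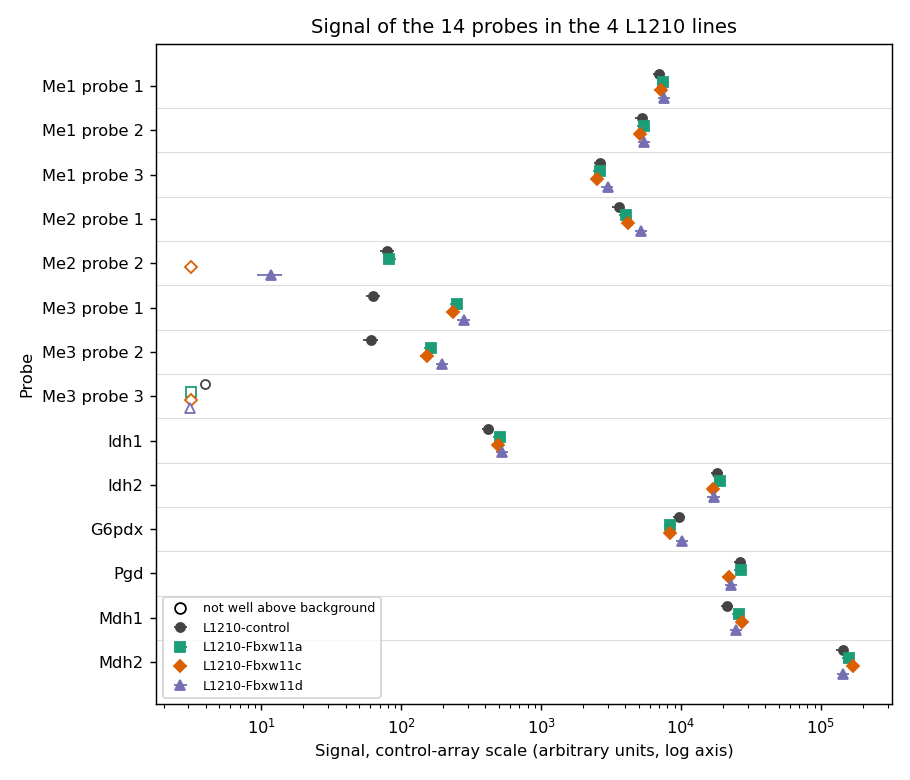
Signal of the 14 probes (rows) in the 4 lines (symbols) on a log axis in arbitrary units, on the scale of the control array. Bars are the scanner's error for the spot, and open symbols mark probes not well above background; Me3 probes 1 and 2 sit at 63.2 and 60.5 in the control line and between 152.4 and 280.0 in the variant lines.

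The probes annotated to Me2 read in opposite directions in the Fbxw11c and Fbxw11d lines. Probe 1, on chromosome 18 from 73929776 to 73929835 of mm9, measured 3584 ± 358 in the control line, 4015 ± 402 in the Fbxw11a line, 4205 ± 421 in the Fbxw11c line and 5214 ± 521 in the Fbxw11d line. The log2 ratios were 0.16 ± 0.09, 0.23 ± 0.08 and 0.54 ± 0.10, and the last, 1.46-fold, was the largest difference from control below the threshold among the 9 genes. The Fbxw11a and Fbxw11c lines did not differ beyond the spot SD, except with median centring, where the Fbxw11a line was at -0.13 against the Fbxw11c line. All 3 ratios kept their sign under each scaling tried.

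Probe 2 of Me2, at 73977802 to 73977861, starts 48026 bases from probe 1 and is annotated in the opposite orientation, to a cDNA clone, so the transcript it reads is not settled. Its signal was 79.4 ± 8.76 in the control line and 82.4 ± 8.76 in the Fbxw11a line, but 11.7 ± 2.38 in the Fbxw11d line, and in the Fbxw11c line it was not well above background. The first pair of lines did not differ beyond the spot SD, with a log2 ratio of 0.05 ± 0.33 that became -0.02 with normexp. The Fbxw11c line was at least 5.34-fold lower than the control line, against the lowest signal of probes well above background, 14.9 on that array. The Fbxw11d line was 6.81-fold lower, a log2 ratio of -2.77 ± 0.88. Its signal lay just above the lowest such signal on its own array, 10.4, so folds against it are uncertain. Among the variant lines, the signal in the Fbxw11a line was at least 5.54-fold higher than in the Fbxw11c line, and that in the Fbxw11d line was 7.07-fold lower than in the Fbxw11a line. No fold was given between the Fbxw11d and Fbxw11c lines. Normexp reduced the log2 ratios to -1.11 in the Fbxw11c line and -1.50 in the Fbxw11d line, both still beyond 2-fold.

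Me1, the cytosolic malic enzyme that supplies NADPH for lipid synthesis, did not reach 2-fold in any line. Its probes lie on chromosome 9 of mm9, from 86475077 to 86475136, 86475215 to 86475274 and 86480571 to 86480630. The first measured 6968, 7496, 7149 and 7617 in the control, Fbxw11a, Fbxw11c and Fbxw11d lines, the second 5221, 5405, 5131 and 5463, and the third 2634, 2616, 2523 and 2986. The 9 log2 ratios over control ran from -0.06 to 0.18, at most 1.13-fold. With median centring those of the Fbxw11d line became 0.35, 0.28 and 0.40 for the 3 probes. Neighbouring lines in the order did not differ beyond the spot SD with the first and second probe, but with the first the Fbxw11a and Fbxw11d lines lay 0.11 ± 0.09 and 0.13 ± 0.12 above the control line. With the third, the Fbxw11d line stood 0.18 ± 0.11 above the control line and the other lines did not separate. Of the 9 ratios, 4 changed sign under a scaling or background correction, namely those of the second probe in the Fbxw11c and Fbxw11d lines and of the third in the Fbxw11a and Fbxw11c lines, and all 4 were within the spot SD.

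The cytosolic Idh1 was higher in each variant line, by less than the threshold. Its probe, on chromosome 1 from 65206035 to 65206094, measured 417.5 ± 41.9 in the control line, 507.1 ± 50.8 in the Fbxw11a line, 491.8 ± 49.3 in the Fbxw11c line and 525.3 ± 52.6 in the Fbxw11d line. The log2 ratios of 0.28 ± 0.10, 0.24 ± 0.09 and 0.33 ± 0.12 exceeded the spot SD and kept their sign under every scaling. The variant lines did not separate from each other, except with median centring. With it the Fbxw11d line lay 0.26 above the Fbxw11a line and 0.24 above the Fbxw11c line, beyond the spot SD. The ratio of the Fbxw11d line over the control line became 0.55 with that centring. The mitochondrial Idh2, on chromosome 7 from 87239736 to 87239795, measured 18135, 18978, 17054 and 17132 in the control, Fbxw11a, Fbxw11c and Fbxw11d lines. No neighbouring pair in its order differed beyond the spot SD, and the ratios over the control line were 0.07 ± 0.08, -0.09 ± 0.08 and -0.08 ± 0.10, the last of which turned positive with median centring. Lines further apart in the order did exceed it, with the Fbxw11c line at -0.09 ± 0.08 against the control line. The Fbxw11a line lay 0.15 ± 0.10 above the Fbxw11c line. The Fbxw11d line was at -0.15 ± 0.11 against the Fbxw11a line, a sign that also turned with median centring.

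G6pdx and Pgd, both of the oxidative branch of the pentose phosphate pathway, were below the control line beyond the spot SD in the Fbxw11c line, and no more than 1 of them was in each other line. G6pdx, which catalyses its first step, measured 9667 in the control line, 8398 in the Fbxw11a line, 8348 in the Fbxw11c line and 10238 in the Fbxw11d line with a probe on chromosome X from 71654949 to 71655008. Log2 ratios were -0.20 ± 0.09, -0.21 ± 0.08 and 0.08 ± 0.11, and the lines fell into a lower and a higher pair within which the spot SD was not exceeded. With median centring the G6pdx ratio in the Fbxw11d line was 0.30, so that the higher pair separated. Pgd, which yields the second NADPH of the pathway, measured 26362, 26727, 21877 and 22788 with a probe on chromosome 4 from 148524293 to 148524352. Here the lower pair was the Fbxw11c and Fbxw11d lines, with log2 ratios of -0.27 ± 0.08 and -0.21 ± 0.11, and the Fbxw11a line differed by 0.02 ± 0.08. The sign for Pgd in the Fbxw11d line changed with median centring and with normexp, and that in the Fbxw11a line with quantile normalization and in the authors' normalized values.

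The malate dehydrogenases were above the control line beyond the spot SD in 5 of 6 ratios, by up to 1.29-fold, and Mdh2 in the Fbxw11d line was not, although it was 0.23 with median centring and 0.12 in the authors' values, beyond that SD. Mdh1, the cytosolic enzyme of the malate-aspartate shuttle, measured 21364 ± 2136 in the control line, 25786 ± 2579 in the Fbxw11a line, 27494 ± 2749 in the Fbxw11c line and 24807 ± 2481 in the Fbxw11d line with its probe on chromosome 11 from 21457280 to 21457339. The log2 ratios were 0.27 ± 0.08, 0.36 ± 0.08 and 0.22 ± 0.11. The mitochondrial Mdh2, on chromosome 5 from 136266157 to 136266216, measured 142973, 157739, 170152 and 144414, with ratios of 0.14 ± 0.09, 0.25 ± 0.08 and 0.01 ± 0.11. For both genes the Fbxw11c line was the highest line, although for Mdh1 the Fbxw11a line was within the spot SD of it. All 6 ratios kept their sign under each scaling. With median centring the Mdh1 ratio in the Fbxw11d line rose to 0.433, beside 0.436 in the Fbxw11c line.

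**Figure D2:**
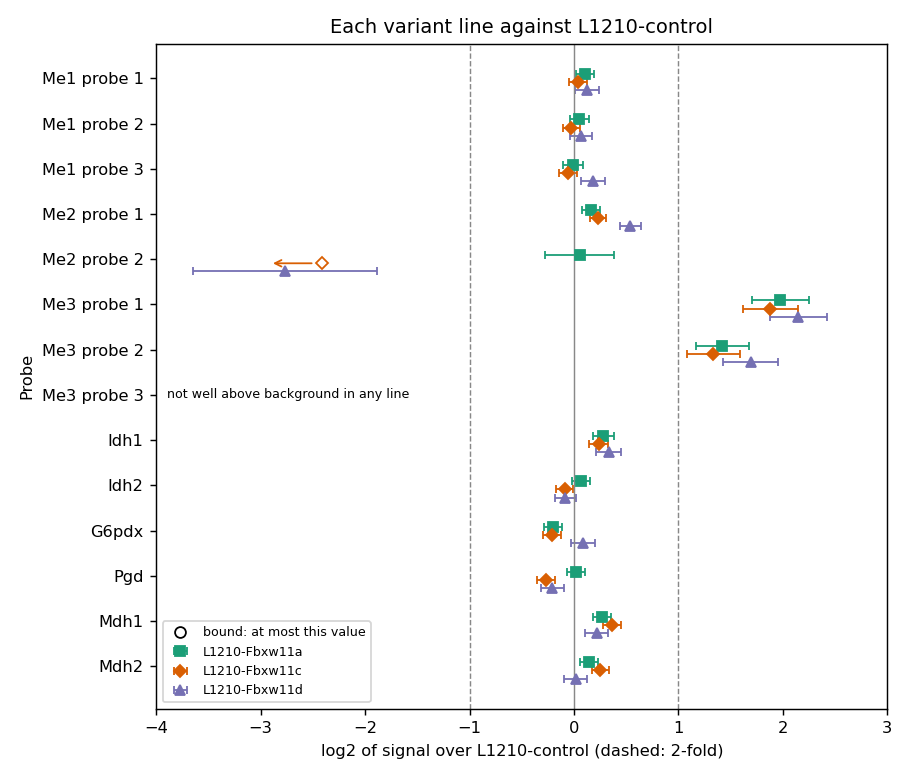
Log2 ratio of each variant line over the control line for every probe, with bars of 1 SD from the spread between repeated spots on both arrays. The open symbol with an arrow is a bound, dashed lines mark 2-fold, and only Me3 probes 1 and 2 and Me2 probe 2 pass them; the other 10 compared probes lie between -0.27 and 0.54.

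Of the 14 probes, 13 could be compared with the control line. At 2-fold, 2 were higher and 0 lower in the Fbxw11a line, where 5.13% of all compared probes on the array were called. In the Fbxw11c line 2 were higher and 1 lower, beside 4.47% of all probes, and in the Fbxw11d line likewise 2 were higher and 1 lower, beside 6.97%. The higher probes were those of Me3 each time and the lower one was probe 2 of Me2. Since Me3 was chosen for these contrasts, nothing is read from the counts. Probes higher by 2-fold in all 3 variant lines made up 0.184% of those compared, 66 in all, of which Me3 held 2. Median log2 ratios over the compared probes of the 9 genes were 0.11, 0.04 and 0.13 for the Fbxw11a, Fbxw11c and Fbxw11d lines. Over all probes they were -0.002, 0.0003 and 0.0009. The medians of the 9 genes include the Me3 probes, whose choice pulls them upward, so nothing is read from this difference either.

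Between variant lines the only probe of the set past 2-fold was Me2 probe 2. Comparing the Fbxw11a line with the Fbxw11c line, 1 of 13 probes was called, where 4.92% of all probes were. The same probe was the 1 of 13 called between the Fbxw11d and Fbxw11a lines, beside 7.34%, and 0 of 12 were called between the Fbxw11d and Fbxw11c lines, beside 5.26%. The comparisons share arrays, so they are not independent of each other.

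The 5 genes whose 3 ratios were nearest to those of Me3 probe 1 were sought among 21880 probes with a symbol that were well above background in all 4 lines, by Euclidean distance between log2 ratios. Nearest was Ccdc150, at a distance of 0.50, followed by Gm15328 at 0.51, Col1a2 at 0.58, Krt27 at 0.62 and Klhl30 at 0.64. Ccdc150 measured 50.6 in the control line and 222.2, 136.7 and 198.3 in the Fbxw11a, Fbxw11c and Fbxw11d lines. Col1a2, a collagen chain and here also a member of the fibroblast and stroma marker list, measured 888.3, 2419, 3819 and 3688. The 8 markers of that list, Col1a2 included, summed to 34296 in the control line and 32987 to 38572 in the variant lines. Of the 8, 5 were well above background in the control line and 6 to 7 in the variant lines. The sum is thus not separate from Col1a2, and the other markers were not read singly. Me3 probe 2 lay 0.90 from probe 1, further than all 5 genes, so genes other than Me3 lay nearer to probe 1 than the second measurable probe of Me3 did.

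**Figure D3:**
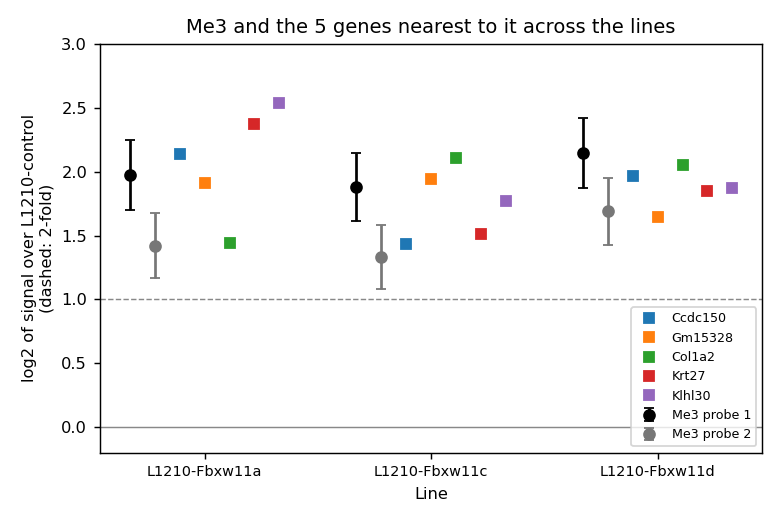
Log2 ratio over the control line in the 3 variant lines for the Me3 probes 1 and 2, with bars of 1 SD from repeated spots, and for the 5 nearest genes, each by 1 probe. All points lie above the dashed 2-fold line, and the genes spread from 1.43 to 2.54. Me3 was chosen for its increase and the genes for lying near its probe 1, so their place above the line follows from the choice.

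Genes of neighbouring pathways were read from 6 lists with 68 genes, each by its brightest probe, of which 65 could be compared. In the Fbxw11a, Fbxw11c and Fbxw11d lines 0 of the 65 reached 2-fold, where 4.45%, 3.88% and 5.75% of all genes did. Median log2 ratios over the 65 genes were 0.03, 0.06 and 0.11, against 0.01, 0.02 and 0.04 over all genes. The furthest of the 65 ratios were -0.83 and 0.69.

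In the pentose phosphate list, which holds the enzymes after and beside G6pdx and Pgd, medians over 6 genes were 0.03, 0.003 and -0.0006. The median in the Fbxw11d line became 0.09 with normexp and 0.22 with median centring. Rpe, the ribulose phosphate epimerase, had ratios of 0.28, 0.24 and 0.40, and Rpia, the ribose phosphate isomerase, 0.04, 0.26 and 0.30. The list of 11 other genes around NADPH, such as the transhydrogenase Nnt and the folate enzymes Mthfd1 and Mthfd2, also holds the formate ligase Mthfd1l, which does not use NADP, and had medians of 0.002, 0.07 and 0.13. Their furthest value was -0.83 for Aldh1l1, a folate enzyme that makes NADPH, in the Fbxw11c line, where the signal was 46.0 against 81.5 in the control line. The 19 genes of the TCA cycle list had medians of 0.06, 0.04 and 0.11 and stayed between -0.29 and 0.37. Of the 9 genes of the malate-aspartate shuttle and carriers, Got1, the cytosolic aspartate aminotransferase, had the highest ratios, 0.23, 0.41 and 0.32. The list's medians were 0.08, -0.06 and -0.02. In the Fbxw11c and Fbxw11d lines they became 0.006 and 0.01 with normexp, and 0.01 and 0.20 with median centring.

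The lipid synthesis list had the highest median of the 6 lists in the Fbxw11c and Fbxw11d lines. It holds enzymes that use NADPH, such as Fasn, together with Acly and Acaca, which supply their carbon substrates without using it, and the transcription factor Srebf1. There 9 of 10 compared genes were above the control line in both lines, with medians of 0.18 and 0.35, while 5 of 10 were in the Fbxw11a line, with a median of 0.0001. For all genes, 9427 of 17514 were above control in the Fbxw11c line and 9701 of 17446 in the Fbxw11d line. Fasn, the fatty acid synthase, measured 414.5 in the control line, 403.0 in the Fbxw11a line, 498.8 in the Fbxw11c line and 666.4 in the Fbxw11d line, a log2 ratio of 0.69 in the last. With another scaling or background correction the list's median ranged from 0.15 to 0.25 in the Fbxw11c line and from 0.27 to 0.57 in the Fbxw11d line, where median centring moved the median of all genes to 0.26 as well.

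The list of redox defence and nucleotide synthesis holds users of NADPH and the ATP-dependent glutathione synthesis genes Gclc and Gclm. Its medians over 10 genes were -0.05, 0.05 and 0.04. In the Fbxw11d line the median became -0.007 with normexp and 0.26 with median centring. Gsr, the glutathione reductase, had ratios of -0.31, -0.0006 and -0.16, and Txnrd1, the cytosolic thioredoxin reductase, -0.08, 0.10 and 0.16. Gclm, a subunit of the enzyme that starts glutathione synthesis, was highest in the Fbxw11d line, with 0.51. Cyba, a subunit of the phagocyte NADPH oxidase, was at 0.51 in the Fbxw11a line and within 0.02 of control in the other lines.

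**Figure D4:**
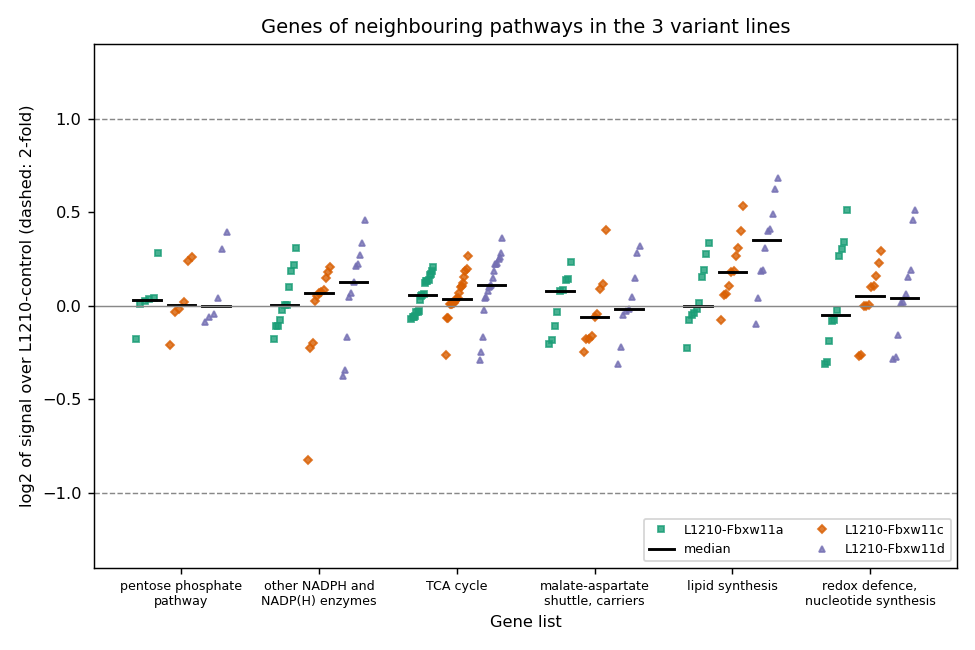
Log2 ratio over the control line of the 65 compared genes of 6 lists, each gene by its brightest probe, in the 3 variant lines. Black bars are medians and dashed lines mark 2-fold, which no gene reaches; the medians of the lipid synthesis list are 0.18 in the Fbxw11c line and 0.35 in the Fbxw11d line.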

How the data were processed

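Each of 4 L1210 lines gave 1 RNA sample for 1 Agilent mouse array with a single dye. For every array the authors deposited the Feature Extraction output, whose processed signal is a background-corrected intensity per spot (version 10.7.1.1 per the file headers, 9.1 per the labels). They also deposited a table of the same arrays with normalized log2 values, gene symbols and mm9 positions, whose normalization is not given in the sources used here. Spots flagged as outliers were left out, log2 intensity was centred on each array's 75th percentile, and a share of 0.5 of its spots flagged well above background sufficed for a probe. The percentiles were 620.2, 627.3, 672.5 and 954.2 for the control, Fbxw11a, Fbxw11c and Fbxw11d lines. Where a probe was dim in 1 of 2 lines, its fold is a bound against the higher of its own signal and that array's detection limit, the lowest signal among probes whose spots were all flagged well above background. Genes of lists were read by their brightest probe. Named genes were every probe of the 9 genes, genes of 6 pathway lists, of which the text names extremes and textbook examples seen in the values, and the 5 genes nearest to Me3. The genes, the lists and the markers were chosen with earlier results of these data known. Calls use the 2-fold threshold of the study's methods. With 1 array per line no test was possible, and the number of arrays limits the precision. The script that makes the calls was first tested on simulated data. Alternatives were normexp (limma 3.58.1 in R 4.3.3, offset 50), quantile normalization, median centring, the deposited log2 values, flagged spots kept, other filters on dim probes, thresholds of 1.5 and 3, and the median of a gene's probes. Other steps used Python 3.11.15, numpy 2.4.6 and pandas 2.3.3.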

Additional observations from a re-analysis of the deposited data

How the results depend on the processing

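No paired analysis was possible because each line has 1 array, and for the same reason no replicate could be left out. In the Fbxw11a line the count of 2 called probes of the 9 genes became 1 with normexp and 1 at 3-fold. In the Fbxw11c line the count of 3 became 2 with normexp and 2 at 3-fold. It also became 2, without Me2 probe 2, when only probes well above background on both arrays were compared. The 1 call between the Fbxw11a and Fbxw11c lines became 0 when only probes well above background on both arrays were compared, and without a filter on dim probes the 0 calls between the Fbxw11d and Fbxw11c lines became 1. The 0 called pathway genes became 1 in the Fbxw11c line and 1 in the Fbxw11d line without the filter, and 1 and 2 at 1.5-fold. Counts over all probes moved most: for the Fbxw11a line, 1932 became 519 with normexp, 5102 without the filter, 979 with the filter on both arrays, 4769 at 1.5-fold and 887 at 3-fold. For the Fbxw11c line, 1655 became 445, 4689, 835, 4221 and 733 in the same order. For the Fbxw11d line, 2725 became 1100 with normexp, 7290 without the filter, 6899 at 1.5-fold and 923 at 3-fold. The higher and lower calls in the Fbxw11d line were 385 and 2340, but 847 and 1534 with median centring, which moved the median of all probes to 0.21, 695 and 1624 with quantile normalization, 691 and 1603 in the authors' values, and 45 and 1055 with normexp. In the Fbxw11c line they were 627 and 1028, but 114 and 331 with normexp. The cause of these shifts was not tested beyond what each setting does by construction. Quantile normalization, the authors' values and keeping flagged spots left all 39 ratios to control of the 9 genes within the spot SD of their value, while median centring and normexp each moved 10 beyond it. Dim probes limit Me3 and probe 2 of Me2 most, since the SD between repeated spots at a signal of 60 was 0.23 on the control array, against 0.049 at 5000.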

Other observations

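Of the 89 probes of the pathway genes, 84, 84 and 85 could be compared in the Fbxw11a, Fbxw11c and Fbxw11d lines, and 1, 0 and 0 of them reached 2-fold, where 5.13%, 4.47% and 6.97% of all probes did. It belongs to Acaca, the acetyl-CoA carboxylase that starts fatty acid synthesis, and was singled out after its values were seen. This dim probe measured 32.2 in the control line and 65.1 in the Fbxw11a line, a log2 ratio of 1.01, which normexp reduced to 0.41. The brightest of the 4 Acaca probes had a ratio of 0.27 there.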
